A study of Mus musculus with 4 samples.

Results

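The CDK inhibitors and the core of the p53 pathway were followed in P7 mouse hearts, as 10 genes of the 24454 in the count table. The set holds the 3 Cip/Kip inhibitors (*Cdkn1a*, *Cdkn1b* and *Cdkn1c*), the 4 Ink4 inhibitors (*Cdkn2a*, *Cdkn2b*, *Cdkn2c* and *Cdkn2d*), and *Trp53*, *Mdm2* and *Ccng1*. Its members are chosen by gene name, with no value in the rule. RNA-seq was performed on hearts at postnatal day 7, with 2 Ctrl libraries (WH7 and WH8) and 2 miR-128OE libraries (WH9 and WH10). Ctrl mice carried miR-128TetRE alone, a miR-128 gene under a tetO promoter at Rosa26, on a C57BL/6 background. MiR-128OE mice carried the same allele together with α-MHC-tTA, in which the cardiomyocyte (CM) α-myosin heavy chain promoter drives the activator tTA, so that miR-128 is made in CMs unless doxycycline (Dox) is given. An effect of tTA itself cannot be told apart from that of miR-128, because Ctrl mice lacked tTA. The Dox schedule of these hearts, and whether each library came from 1 heart or a pool, are not given in the sources used here, so p-values measure the spread between libraries.

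Cell cycle entry is driven by cyclins bound to cyclin-dependent kinases (CDKs). Cip/Kip proteins bind cyclin-CDK complexes, above all those of CDK2, whereas Ink4 proteins bind CDK4 and CDK6 alone. The transcription factor p53, encoded by *Trp53*, raises *Cdkn1a*, *Mdm2* and *Ccng1* after stress, and MDM2 in turn marks p53 for degradation. CDK inhibitors are known for their part in the withdrawal of CMs from the cell cycle after birth.

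The libraries held 8096870 to 14359838 counts. The condition coincided with the sex of the mice: *Xist* had 14543 and 11339 counts in Ctrl against 94 and 132 in miR-128OE libraries, so the condition and sex cannot be told apart. All 10 genes lie on autosomes, and for these too the condition and sex cannot be told apart. The miR-128 hairpin genes do not check the labels, with 0 counts of *Mir128-1* in every library and 0, 0, 2 and 10 counts of *Mir128-2*. Markers of CMs were abundant, which fits the tissue, with summed levels of 475715 and 499217 normalized counts in Ctrl against 574671 and 586106 in miR-128OE libraries, and 4 of the 8 were higher and 2 lower. Of 8 markers each, 2 endothelial ones were higher and 2 lower, 3 mural ones higher and 1 lower, and 1 fibroblast one higher. Of 8 macrophage and 6 epicardial markers, 0 were higher and 0 lower. For each list the comparison is all genes tested, of which 16.5% were higher and 15.0% lower. Of 3 tested erythroid markers 1 was higher, *Alas2* of heme synthesis, with 445 and 304 normalized counts in Ctrl against 823 and 756 in miR-128OE libraries (log2 fold change 1.05, adjusted p = 0.00106), and the sum of the erythroid list was 527 and 377 against 924 and 842, while its 4 globin genes had 0 counts in every library. *Alas2* lies on chromosome X, and in its value, as in those of all genes, the condition and sex cannot be told apart. The part of cell type in the results was not tested. Normalized counts are counts scaled to a common library size. In whole-heart RNA, fewer cells of a type and less RNA per cell cannot be told apart.

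The mature miR-128-3p is printed to show its seed, bases 2 to 8, in capitals. A perfect match to the seed in a 3′UTR is the usual mark of a candidate target. The matches in the annotated 3′UTRs of the 10 genes follow, with the matched bases in capitals.
mmu-miR-128-3p: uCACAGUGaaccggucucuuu
Ccng1, chr11:40750682-40750708, minus strand: ggaaggcattCACTGTGtacagtgcgt
Ccng1, chr11:40749535-40749561, minus strand: gtgaaataaaACTGTGAaccttcattc
Cdkn2b, chr4:89306468-89306494, minus strand: tttccactaaACTGTGAcccacagttg

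The miRNA sequence is from RefSeq, and the sites were read from GRCm38 in GENCODE M21 3′UTRs. Matches were searched on the transcript strand as CACTGTG (bases 2 to 8) and as ACTGTGA (bases 2 to 7 followed by A), forms that can overlap. They were found in 2 of the 10 genes. For comparison, 33.2% of the 13339 tested genes with a 3′UTR held at least 1. *Ccng1* held both forms in a 3′UTR of 2316 bases. The 3′UTR of *Cdkn1b* held none over 3439 bases, nor did that of *Mdm2* over 2199 or that of *Cdkn1a* over 1334.

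Of the 10 genes, 8 passed the filter on low counts and were tested, and 2 of these, *Ccng1* and *Cdkn1a*, were higher in miR-128OE than in Ctrl hearts. None was lower, by edgeR or DESeq2 or at an unadjusted p under 0.05 (0 genes each), and 6 did not pass the threshold of 0.05 on the adjusted p-value. Across all 14266 genes tested, 16.5% were higher, 15.0% were lower and 31.5% changed in either direction. The 2 of 8 are 25.0%, so the number of calls among these genes lies near that background. The median log2 fold change of the 8 genes was 0.10, against −0.01 for all genes tested. In 4 of the 8 (*Ccng1*, *Cdkn1a*, *Cdkn1b* and *Cdkn2d*) both miR-128OE libraries were above both Ctrl libraries, as they were for 33.7% of all genes.

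**Figure D1:**
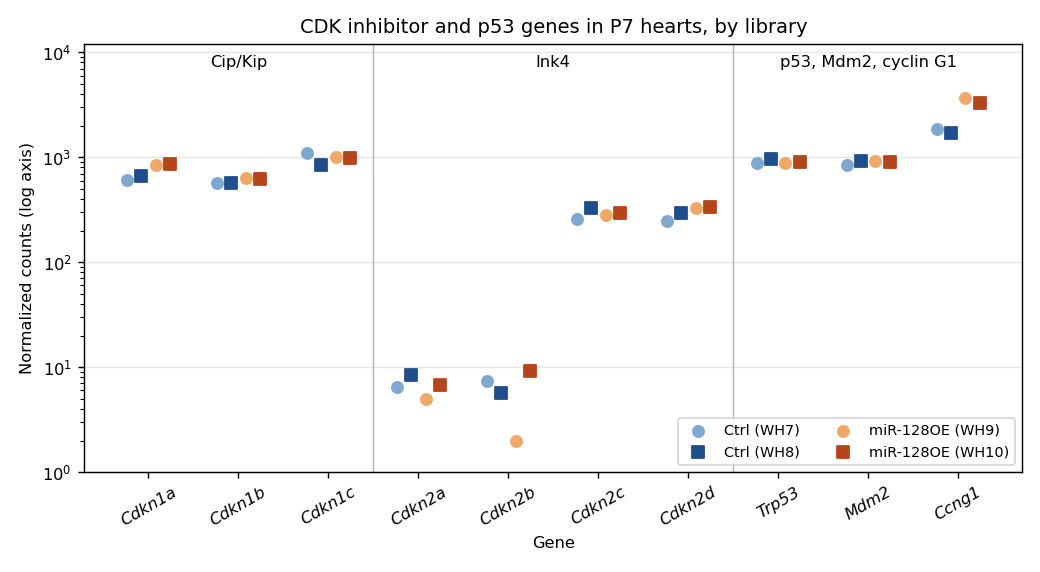
Normalized counts (log axis) of the 10 genes, 1 point per library, Ctrl in blue and miR-128OE in orange, grouped as Cip/Kip, Ink4, and p53 with Mdm2 and cyclin G1. *Ccng1* in miR-128OE libraries, at 3321 and 3649, stands above every other value, and *Cdkn2a* and *Cdkn2b* lie near the floor in all 4 libraries.

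Among the Cip/Kip genes *Cdkn1a* was higher in miR-128OE hearts, by 1.34-fold. *Cdkn1a* encodes p21, the inhibitor of CDK2 complexes best known as a p53 target. It had 614 and 659 normalized counts in WH7 and WH8, the Ctrl hearts, and 843 and 858 in WH9 and WH10, the miR-128OE hearts. The groups did not overlap, and the gap between them was wider than the spread within either group. The log2 fold change was 0.42 (standard error 0.09, 95% interval 0.23 to 0.61, adjusted p = 0.00603 by the edgeR quasi-likelihood test). The call was lost when either miR-128OE library was left out, with a log2 fold change of 0.45 and an adjusted p of 0.0578 without WH9, and 0.42 and 0.0585 without WH10. In these fits, with a single miR-128OE library, the calls over all genes went from 4490 to 1564 without WH9 and to 2285 without WH10. It was kept by DESeq2 (adjusted p = 0.0118) and by scaling to total counts (0.32, adjusted p = 0.0200). A transcript model on the opposite strand covers 7.70% of the exon bases of *Cdkn1a*, and whether the counting used strand is not given.

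*Cdkn1a* lies on chromosome 17 (29090979 to 29100722 of GRCm38) and has 2 annotated starts 2790 bases apart. The 300 bases around the upstream start, and those around the start of *Ccng1*, are printed because these are the genes that rose. They run from 250 bases before the start to 50 after it (RefSeq, GRCm38.p6), and capitals mark decamers of the p53 consensus, the repeated unit of a p53 site.
Cdkn1a, chr17:29090729-29091028, plus strand: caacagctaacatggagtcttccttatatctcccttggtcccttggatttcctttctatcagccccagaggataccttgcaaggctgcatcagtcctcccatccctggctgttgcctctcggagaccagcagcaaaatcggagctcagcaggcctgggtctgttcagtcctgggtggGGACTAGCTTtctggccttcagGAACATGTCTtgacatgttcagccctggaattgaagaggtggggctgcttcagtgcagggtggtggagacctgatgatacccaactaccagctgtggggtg
Ccng1, chr11:40755237-40755536, minus strand: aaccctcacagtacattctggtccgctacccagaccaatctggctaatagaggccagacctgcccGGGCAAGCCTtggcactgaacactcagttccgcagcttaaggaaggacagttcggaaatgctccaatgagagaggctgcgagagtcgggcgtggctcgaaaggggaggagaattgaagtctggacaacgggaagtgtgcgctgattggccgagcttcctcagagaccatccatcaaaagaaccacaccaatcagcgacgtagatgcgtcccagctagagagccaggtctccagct

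A p53 site is a pair of such decamers at most 13 bases apart, and because the decamer reads alike on both strands the search covered both. The window of *Cdkn1a* held 2 decamers, which begin 73 and 51 bases before the start and are 12 bases apart, and so form a pair. Such a pair was present in 0.0731% of the 32851 promoter windows of the genome. The window of *Ccng1* held 1 decamer, 185 bases before the start. A single decamer was also present in those of *Mdm2*, *Trp53* and *Cdkn2d*, so 5 of the 12 windows of the 9 genes with an entry held at least 1, against 8.36% of all windows. The downstream start of *Cdkn1a* and the windows of *Cdkn1b*, *Cdkn2a*, *Cdkn2b* and *Cdkn2c* held none. Because the set was chosen to hold known p53 targets, the comparison with all windows is not a result of these data. A match to these letters is a description of the sequence and not a measured site. Only exact matches were marked, so a decamer that differs in 1 letter was left in small letters.

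*Cdkn1b*, which encodes p27, had 562 and 572 normalized counts in Ctrl against 631 and 622 in miR-128OE libraries. The miR-128OE values were higher without overlap, but the difference was small and did not pass the threshold (log2 fold change 0.14, standard error 0.09, adjusted p = 0.246). Its 95% interval ran from 0.96-fold to 1.27-fold and overlapped that of *Cdkn1a*, from 1.17-fold to 1.53-fold, and the difference between the genes was not tested. The adjusted p stayed above the threshold in all 15 alternatives, between 0.159 and 0.735.

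*Cdkn1c* encodes p57, an imprinted growth inhibitor made mostly from the maternal allele. It had 1095 and 847 normalized counts in Ctrl against 1013 and 983 in miR-128OE libraries. Both miR-128OE values lay between the Ctrl values, and the log2 fold change was 0.03 (95% interval 0.85-fold to 1.22-fold, adjusted p = 0.856). Its sign changed with the scaling, being −0.07 with total counts, and an antisense gene covers 30.7% of its exon bases. *Cdkn1c* was higher in WH7 than in WH8, as was the sum of 6 epicardial markers (1800 against 1035 normalized counts). The fibroblast (117142 against 76106), macrophage (1493 against 1100), erythroid (527 against 377) and mural (24223 against 23125) sums were also higher. The CM, endothelial and proliferation sums were lower. The part of cell type in the *Cdkn1c* value was not tested.

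*Kcnq1ot1*, the noncoding RNA that silences *Cdkn1c* and its neighbors on the paternal chromosome, was the gene of that imprinted domain with the smallest p-value. It fell from 7931 and 8350 normalized counts in Ctrl to 3347 and 4115 in miR-128OE libraries (log2 fold change −1.13, adjusted p = 0.00015). It lies antisense within *Kcnq1*, so without strand its reads and those from introns of *Kcnq1* cannot be told apart. Of the 7 tested genes of the domain 2 passed the test, against 31.5% of all genes. The other was *Cd81*, which encodes a tetraspanin, at a log2 fold change of 0.28 (adjusted p = 0.0312). Its call was lost with total counts (0.18, adjusted p = 0.122), with upper-quartile factors, and without WH9 or WH10 (0.29 in each fit, adjusted p = 0.203 and 0.172). *Nap1l4* had 0.22 (adjusted p = 0.0565).

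Of the 4 Ink4 genes, *Cdkn2c* and *Cdkn2d* were expressed well above the floor and *Cdkn2a* and *Cdkn2b* were barely detected. No Ink4 gene passed the test. *Cdkn2d*, which encodes p19Ink4d, had 247 and 294 normalized counts in Ctrl against 332 and 333 in miR-128OE libraries. The groups did not overlap, at a log2 fold change of 0.31 (standard error 0.13, 95% interval 0.02 to 0.59), but the adjusted p was 0.0913. This call turned on 1 library: without WH8 the log2 fold change was 0.43 and the adjusted p 0.0196, whereas without WH7 they were 0.18 and 0.332.

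*Cdkn2c*, which encodes p18Ink4c, had 260 and 328 normalized counts in Ctrl against 281 and 297 in miR-128OE libraries. The miR-128OE values again lay between the Ctrl values (log2 fold change −0.01, 95% interval 0.80-fold to 1.23-fold, adjusted p = 0.963). The higher Ctrl library, WH8, also had the highest sum of 13 proliferation markers, 11656 normalized counts against 9211 in WH7 and 6708 and 6760 in the miR-128OE libraries. The part of proliferating cells in the *Cdkn2c* level was not tested.

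*Cdkn2a* gives rise to p16Ink4a and, from another first exon, to p19Arf, which holds MDM2 in check. It had 7 and 6 counts in Ctrl against 5 and 8 in miR-128OE libraries. *Cdkn2b*, which encodes p15Ink4b, had 8 and 4 counts in Ctrl against 2 and 11 in miR-128OE libraries. Both genes were below the filter. In the fit without a filter the log2 fold change was −0.29 for *Cdkn2a* (adjusted p = 0.845) and −0.17 for *Cdkn2b* (adjusted p = 0.922), and at these counts a difference was not detectable. The count of *Cdkn2a* does not separate p16Ink4a from p19Arf, whose transcripts share 49.1% of their bases. The longest run of bases shared by *Cdkn2a* and *Cdkn2b* transcripts was 23.

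**Figure D2:**
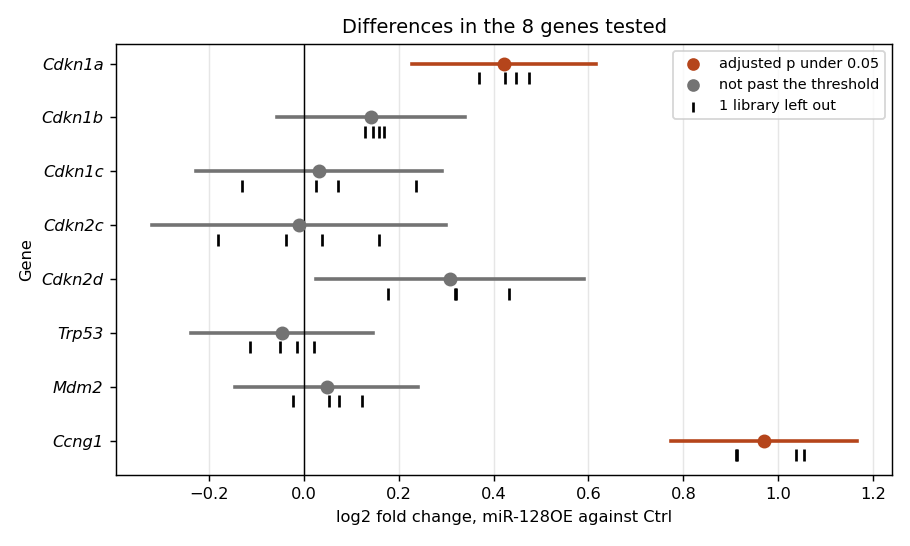
Log2 fold change of miR-128OE against Ctrl for the 8 genes tested, with the 95% interval before adjustment (bars) and the values with each library left out in turn (black ticks). *Ccng1* at 0.97 and *Cdkn1a* at 0.42 passed the threshold, whereas the ticks of *Cdkn1c*, *Cdkn2c*, *Trp53* and *Mdm2* fall on both sides of 0.

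Of the p53 genes, *Ccng1* rose by close to 1 on the log2 scale, whereas *Trp53* and *Mdm2* did not pass the test. *Ccng1* encodes cyclin G1, a p53 target that recruits protein phosphatase 2A to MDM2. It had 1858 and 1697 normalized counts in Ctrl against 3649 and 3321 in miR-128OE libraries. Every miR-128OE value was far above every Ctrl value, and the ratio of the group means was 1.96 against 1.09 and 1.10 between the libraries of a group. The log2 fold change was 0.97 (standard error 0.09, 95% interval 1.71-fold to 2.24-fold, adjusted p = 0.000112 by the edgeR quasi-likelihood test). The log2 fold change was above that of 97.5% of the genes tested. *Ccng1* passed the threshold in all 15 alternatives, with log2 fold changes from 0.87 to 1.05. *Ccng1* is also the tested gene of the 8 whose 3′UTR holds matches to the miR-128 seed, the 2 printed above. The paper describes miRNAs as lowering their targets, mainly through loss of the mRNA, and *Ccng1* was higher. The part of these matches in its level was not tested.

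*Trp53* had 878 and 961 normalized counts in Ctrl against 876 and 901 in miR-128OE libraries. The groups overlapped, and the log2 fold change was −0.05 (95% interval 0.85-fold to 1.11-fold, adjusted p = 0.712). *Mdm2*, which encodes the ubiquitin ligase of p53 and is itself a p53 target, had 838 and 924 in Ctrl against 915 and 904 in miR-128OE libraries. These groups overlapped as well, with a log2 fold change of 0.05 (95% interval 0.90-fold to 1.18-fold, adjusted p = 0.698) that was −0.05 with scaling to total counts. Within a library, the level of *Ccng1* per length was 3.21 and 2.66 times that of *Mdm2* in Ctrl and 5.77 and 5.32 times in miR-128OE hearts. For *Cdkn1a* against *Mdm2* these ratios were 1.05 and 1.02 in Ctrl against 1.32 and 1.36 in miR-128OE hearts. Both ratios were higher in each miR-128OE library than in either Ctrl library, and they do not depend on the scaling between libraries.

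Levels were compared between genes per length of exon, as RPKM, reads scaled to length and library size. In Ctrl hearts the order was led by *Ccng1* at 43.0 ± 2.75 and *Cdkn1c* at 40.4 ± 7.30 RPKM (SD, n = 2), which did not differ beyond their spread. *Trp53* followed at 19.3 ± 1.23 RPKM. *Cdkn1a* at 15.2 ± 0.760, *Mdm2* at 14.7 ± 1.02 and *Cdkn2d* at 14.6 ± 1.79 RPKM overlapped, above *Cdkn1b* at 10.6 ± 0.132. *Cdkn2c* had 9.28 ± 1.52 RPKM, and *Cdkn2a* and *Cdkn2b* had 0.539 ± 0.106 and 0.396 ± 0.0718. In miR-128OE hearts *Ccng1* reached 84.2 ± 5.62 RPKM, and *Cdkn1a*, at 20.3 ± 0.259, stood above *Trp53*, at 18.6 ± 0.364, while the other places changed only in that *Cdkn2d* passed *Mdm2*.

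**Figure D3:**
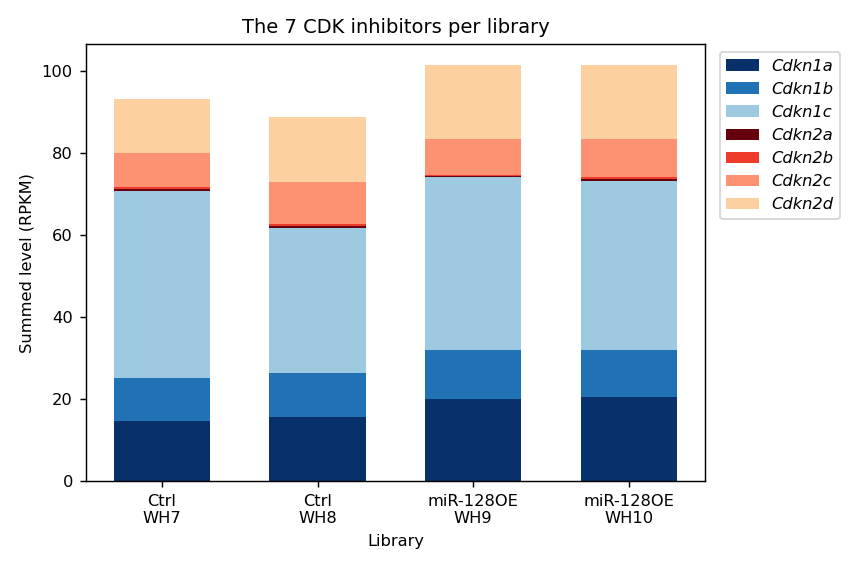
Stacked levels (RPKM, from 0) of the 7 CDK inhibitors in each library, Cip/Kip genes in blue and Ink4 genes in red and orange. The sums were 93.1 and 88.8 RPKM in Ctrl and 101 RPKM in each miR-128OE library, with *Cdkn1c* the widest band in all 4.

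The 7 CDK inhibitors together reached 93.1 and 88.8 RPKM in Ctrl hearts against 101.3 and 101.4 in miR-128OE hearts. *Cdkn1c* made up 48.9% and 39.7% of this sum in Ctrl against 41.6% and 40.4% in miR-128OE hearts. *Cdkn1a* made up 15.7% and 17.7% in Ctrl against 19.9% and 20.2% in miR-128OE hearts. The Cip/Kip genes held 75.9% and 69.4% of the sum in Ctrl against 73.1% and 72.0% in miR-128OE hearts, so the balance of Cip/Kip to Ink4 transcripts did not separate the groups.

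The partners that these inhibitors bind were lower or did not pass the test. Of the 12 cyclins and CDKs tested, 5 were lower (41.7%, against 15.0% of all genes) and 0 were higher (against 16.5%), and their median log2 fold change was −0.19. DESeq2 called 3 of the 12 lower and 0 higher, against 9.88% and 12.0% of all genes. At an unadjusted edgeR p under 0.05 there was 1 higher gene. The kinase gene *Cdk6* fell from 1180 and 1307 normalized counts in Ctrl to 787 and 899 in miR-128OE libraries (log2 fold change −0.56, adjusted p = 0.00259). *Cdk2*, the main kinase bound by Cip/Kip proteins, fell from 783 and 859 to 602 and 640 (−0.40, adjusted p = 0.00991). The S phase cyclin gene *Ccna2* fell by 0.50 on the log2 scale (adjusted p = 0.0165), the log2 fold change of *Ccne2* was −0.98 (adjusted p = 0.0322), and that of *Ccnd1* was −0.27 (adjusted p = 0.0369). The other 7 did not pass the threshold, with −0.31 for *Ccnb1*, −0.11 for *Cdk1*, 0.04 for *Cdk4*, 0.08 for *Ccnd2*, 0.17 for *Ccnb2*, 0.25 for *Ccnd3* and 0.28 for *Ccne1*. *Ccna1* was below the filter. Without WH9 none of the 12 was called lower and without WH10 1 was, while the shares of all genes called lower were 4.56% and 6.97%. The log2 fold changes in these fits were −0.45 and −0.64 for *Cdk6*, −0.34 and −0.43 for *Cdk2*, and −0.48 and −0.49 for *Ccna2*. Of 13 proliferation markers, 6 were lower and 0 higher. *Mki67* had the smallest p-value of them (log2 fold change −1.15, adjusted p = 0.000388) and *Cenpf* fell by 1.16 on the log2 scale (adjusted p = 0.000484), and their part in the cyclin and CDK values was not tested.

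Genes known as p53 targets, other than the 3 above, moved both ways. Of 36 tested, 8 were higher, 5 were lower and 23 did not pass the threshold, with a median log2 fold change of 0.09. These shares, 22.2% higher and 13.9% lower, lie close to the 16.5% and 15.0% of all genes, and the balance turned over with scaling to total counts, to 4 higher and 8 lower, a scaling under which 11.3% of all genes were higher and 20.6% lower. *Btg2*, an antiproliferative gene that immediate early signals also raise, rose from 537 and 485 normalized counts in Ctrl to 1235 and 1183 in miR-128OE libraries (log2 fold change 1.24, adjusted p = 3.67e-05). *Perp*, a gene of desmosomes and cell death, rose from 2074 and 1994 to 3198 and 2937 (0.59, adjusted p = 0.00084). *Tnfrsf10b*, the death receptor for TRAIL, fell from 610 and 650 to 326 and 347 (−0.90, adjusted p = 0.000296). Chosen after their values were seen, the other genes that rose were *Tigar* (0.78), *Rrm2b* (0.43), *Rps27l* (0.36), *Plk2* (0.34), *Ei24* (0.33) and *Bax* (0.31), and the others that fell were *Ddb2* (−1.19), *Pidd1* (−0.66), *Phlda3* (−0.46) and *Sesn1* (−0.35). Without WH9 and without WH10, the log2 fold changes of *Btg2* were 1.22 and 1.29. Those of *Perp* were 0.54 and 0.67, and those of *Tnfrsf10b* were −0.84 and −0.93.

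Regulators of p53 were lower or did not pass the test. Of 27 tested, 9 were lower (33.3%, against 15.0% of all genes) and 0 were higher by edgeR, with a median log2 fold change of −0.11. DESeq2 also called 9 lower and 0 higher, against 9.88% and 12.0% of all genes. At an unadjusted edgeR p under 0.05 there were 2 higher genes. *Crebbp*, a coactivator that acetylates p53, fell from 1174 and 1360 normalized counts in Ctrl to 804 and 797 in miR-128OE libraries (log2 fold change −0.66, adjusted p = 0.00096). *Atr*, a kinase of the replication stress response, fell from 518 and 628 to 335 and 347 (−0.74, adjusted p = 0.00175). *Mdm4*, the partner of MDM2 that holds p53 inactive, fell from 3051 and 3580 to 1965 and 2283 (−0.64, adjusted p = 0.00199). The rest, named after their values were seen, were *Chek2* (−0.71), *Atm* (−0.68), *Prkdc* (−0.63), *Pml* (−0.57), *Usp7* (−0.38) and *Huwe1* (−0.32). The 9 hold activators of p53 (the kinases) beside inhibitors (*Mdm4* and *Huwe1*). On autosomes alone 8 were lower and 0 higher, against 14.5% and 16.9% of the genes tested there. With an offset for GC content and transcript length, 8 were lower and 1 was higher, against 12.7% and 17.5% of all genes. The log2 fold changes of *Crebbp*, *Atr* and *Mdm4* were then −0.51, −0.55 and −0.50. Without WH9 and without WH10, *Crebbp* had −0.65 and −0.64 on the log2 scale. *Atr* had −0.70 and −0.75, and *Mdm4* had −0.52 and −0.74.

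**Figure D4:**
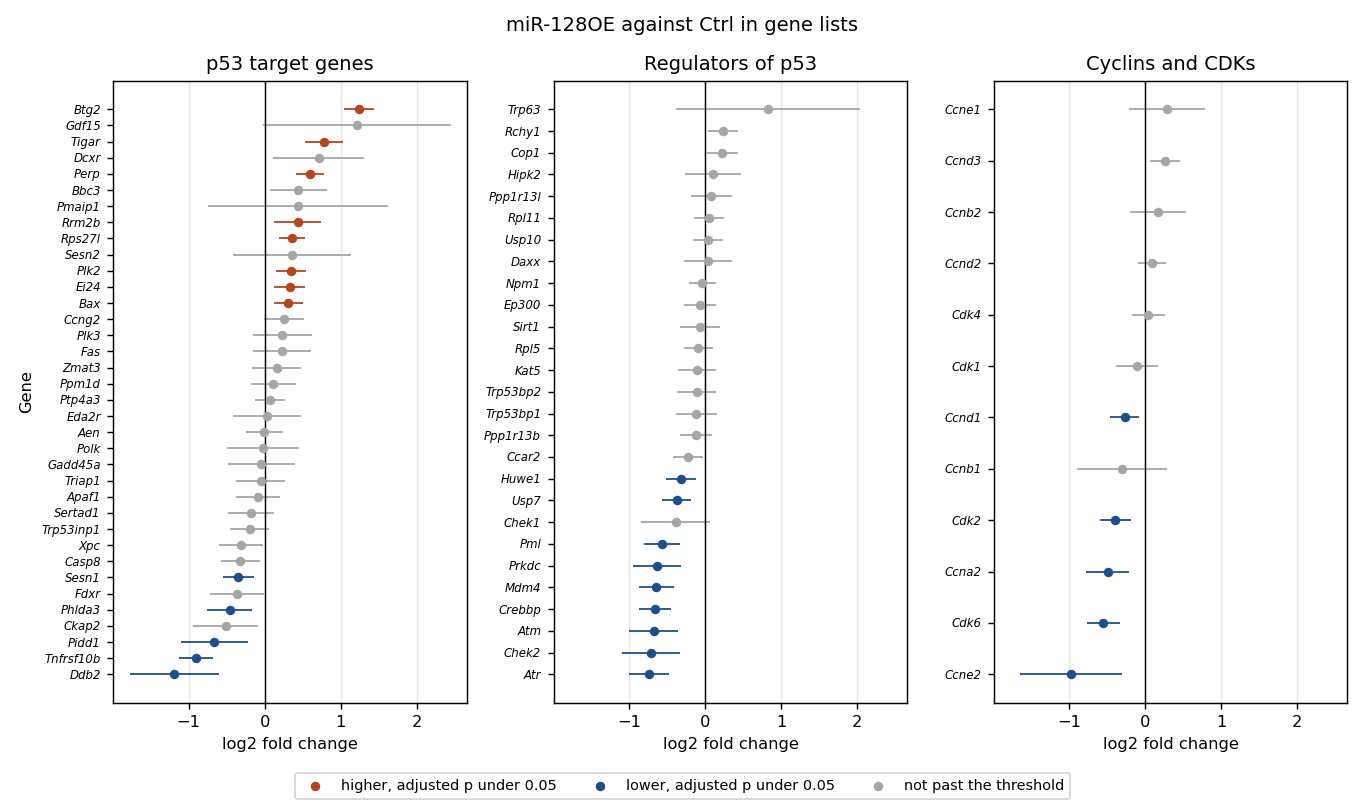
Log2 fold change with 95% interval of each tested gene among the 36 p53 targets, the 27 regulators of p53 and the 12 cyclins and CDKs, ordered by value, with genes past the threshold in red (higher) or blue (lower). The p53 targets spread to both sides, and the regulators and the cyclins and CDKs had calls on the lower side only, 9 and 5.

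Genes that control the inhibitors from outside the p53 pathway were counted next. Of 17 tested genes of Cip/Kip protein turnover, 3 were higher (17.6%, against 16.5% of all genes) and 1 was lower (5.88%, against 15.0%), at a median log2 fold change of 0.10. With scaling to total counts 2 were higher and 4 lower, against 11.3% and 20.6% of all genes. *Akt1*, whose kinase phosphorylates p21 and p27, rose from 2957 and 2926 normalized counts to 4227 and 4142 (log2 fold change 0.51, adjusted p = 0.00131). *Ppp2r1a*, a subunit of protein phosphatase 2A, had 0.33 (adjusted p = 0.0117) and *Cops5*, a subunit of the COP9 signalosome that binds p27, had 0.30 (adjusted p = 0.0215). The call of *Cops5* was lost with total counts (adjusted p = 0.0888) and by DESeq2 (adjusted p = 0.0678).

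Of 19 repressors of the Ink4 genes, mostly Polycomb subunits, 3 were higher (15.8%, against 16.5% of all genes) and 5 were lower (26.3%, against 15.0%), at a median of −0.19. With scaling to total counts 2 were higher and 8 lower, against 11.3% and 20.6% of all genes. DESeq2 called 3 higher and 3 lower, against 12.0% and 9.88% of all genes. *Ezh2*, the methyltransferase of Polycomb complex 2, fell from 877 and 923 normalized counts to 577 and 627 (log2 fold change −0.58, adjusted p = 0.00146). *Cbx6*, a Polycomb complex 1 subunit, fell as well (−0.37, adjusted p = 0.00767), and *Id1*, an inhibitor of basic helix-loop-helix factors, rose (0.48, adjusted p = 0.00389). *Suz12*, another subunit of Polycomb complex 2, had 816 and 909 in Ctrl against 749 and 727 in miR-128OE libraries, and did not pass the threshold (−0.22, adjusted p = 0.0857). Neither of the Ink4 genes tested had a call, as described above.

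Of 23 transcription factors and related genes known to induce CDK inhibitors, 3 were higher (13.04%, against 16.5% of all genes) and 5 were lower (21.7%, against 15.0%), at a median of −0.01. DESeq2 called 3 higher and 1 lower, against 12.0% and 9.88% of all genes. With the GC and length offset 3 were higher and 3 lower, against 17.5% and 12.7% of all genes. *Egr1*, an immediate early factor, rose from 501 and 383 normalized counts to 2622 and 2688 (log2 fold change 2.57, adjusted p = 2.44e-06). *Klf4*, an activator of *Cdkn1a*, rose from 1006 and 1124 to 1929 and 1949 (0.87, adjusted p = 0.000159). *Dmtf1*, an activator of p19Arf, fell (−0.51, adjusted p = 0.00956). Of 20 genes that respond to FoxO factors, glucocorticoids or the clock, 8 were higher (40.0%, against 16.5% of all genes) and 3 were lower (15.0%, as of all genes), at a median of 0.29. With scaling to total counts 3 were higher and 4 lower, against 11.3% and 20.6% of all genes. DESeq2 called 4 higher and 3 lower, against 12.0% and 9.88% of all genes. On autosomes alone 7 were higher and 3 lower, against 16.9% and 14.5% of the genes tested there. *Sgk1*, a kinase that phosphorylates FoxO3, rose from 787 and 780 to 1749 and 1723 (1.15, adjusted p = 2.89e-05). *Zbtb16* and *Ddit4*, which glucocorticoids raise, had 1.86 (adjusted p = 0.000142) and 1.10 (adjusted p = 0.000508). Of 11 other genes named for CDK inhibition or binding, 1 was higher (9.09%, against 16.5% of all genes), *Ccndbp1* (0.34, adjusted p = 0.038). This call was lost by DESeq2 (adjusted p = 0.115), with total counts (0.24, adjusted p = 0.128), with upper-quartile factors, and without WH8, WH9 or WH10 (0.44 without WH9 and 0.26 without WH10). *Cdk2ap1* had 0.23 (adjusted p = 0.0561) and *Ccng2*, the relative of *Ccng1*, had 0.25 (adjusted p = 0.133). With a single miR-128OE library the calls in these lists fell, as they did over all genes. Without WH9 the genes of Cip/Kip turnover had 1 higher and 0 lower, the Ink4 repressors 1 and 1, the inducers 2 and 0, and the FoxO, glucocorticoid and clock genes 3 and 2. Without WH10 these were 1 and 0, 2 and 1, 2 and 1, and 6 and 3. The log2 fold changes of *Akt1* were then 0.51 and 0.54, those of *Ezh2* −0.51 and −0.62, and those of *Klf4* 0.89 and 0.88. *Sgk1* had 1.15 and 1.17, and these genes kept their calls. The calls of *Ppp2r1a* (0.32 and 0.38), *Cops5* (0.29 and 0.35) and *Cbx6* (−0.38 and −0.34) were lost in both fits. That of *Dmtf1* was lost without WH9 (−0.38) but not without WH10 (−0.62).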

How the data were processed

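RNA-seq of P7 hearts was used, with 2 Ctrl and 2 miR-128OE libraries grouped by the genotype in the labels. Per the methods, the authors discarded reads of low quality, used TopHat2 on mm10 and counted the reads of each known gene. They deposited these raw counts per Entrez gene. Strand, gene models and the treatment of reads that match several genes are not given in the sources used here. Totals were 8096870 to 14359838 counts, and intervals cover the spread between libraries only.

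Symbols were matched for 24374 of 24454 genes. EdgeR 4.0.16 (R 4.3.3) was run with filterByExpr (minimum count 10), TMM factors and the quasi-likelihood test, with Benjamini-Hochberg adjustment across the 14266 genes tested and 0.05 as the threshold. Standard errors are log2 fold changes divided by the square root of F. The script was tested on simulated data. RPKM used GENCODE M21 exon lengths. The 10 genes, the gene lists and the tests were chosen with earlier results of these data known. Named genes are the 10, the 3 of each list with the smallest p-value, and all cyclins and CDKs listed. *Suz12*, *Xist*, *Alas2* and the miR-128 hairpins were named besides, as were the other p53 targets and regulators with a call, after their values were seen. *Cdkn1c* had no promoter entry in the source used here, and protein sequences were not used.

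Alternatives were DESeq2 1.42.0, edgeR's exact and likelihood ratio tests, other size factors and filters, autosomes alone, an offset for GC content and length, a 1.5-fold limit, and each library left out. The 1.5-fold limit was set on the main fit, and the others were refits. Hearts at P1 and P28 were not analysed here.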

Additional observations from a re-analysis of the deposited data

How the results depend on the processing

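*Ccng1* kept its direction and call in all 15 alternatives. *Cdkn1a* kept its direction in all 15, with log2 fold changes from 0.32 to 0.47, and lost its call only without either miR-128OE library and under a 1.5-fold limit. Among the genes with no call, the sign changed for *Cdkn1c* with upper-quartile factors (−0.0143), total counts (−0.0677) and the GC and length offset (−0.0587), for *Mdm2* with total counts (−0.0504), and for *Cdkn2c* without the filter (0.00107) and on autosomes alone (0.00047). With 1 library left out at a time, values ran from −0.13 to 0.24 for *Cdkn1c*, −0.18 to 0.16 for *Cdkn2c*, −0.023 to 0.12 for *Mdm2* and −0.11 to 0.0217 for *Trp53*. The calls then ranged from 1 to 3 of the 8 genes, from 897 to 2654 higher and 667 to 2384 lower of all genes, from 4 to 8 higher and 1 to 7 lower p53 targets, from 0 to 1 higher and 5 to 10 lower p53 regulators, and from 0 to 1 higher and 0 to 6 lower cyclins and CDKs. A fit with 1 library in a group assumes that it varies like the other group. Under the 1.5-fold limit 1 of the 8 genes was higher, with 935 genes higher and 1187 lower in all, 3 p53 targets higher and 3 lower, and 1 cyclin or CDK lower. DESeq2 called 1410 genes lower, 3 p53 targets lower and 3 cyclins and CDKs lower. Scaling to total counts shifted the log2 fold changes, whose median over all genes became −0.11, and moved the share of calls that were higher from 52.3% to 35.4% (44.2% with upper-quartile factors), with 4 p53 targets higher and 8 lower. The fit without a filter and that with the GC and length offset each called 1 cyclin or CDK higher, and the latter 1 p53 regulator higher. The causes of these shifts were not tested. No paired analysis was possible because the labels give no number that the groups share. With 2 libraries a group, the 95% intervals of the tested genes without a call reach up to 0.59 on the log2 scale, as for *Cdkn2d*.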
